A study of Homo sapiens with 12 samples.

Results

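The comparison described here is gilteritinib added to MI-3454: the 3 libraries of MOLM-13 cells given both agents against the 3 libraries given MI-3454 alone, chosen by sample title, which makes 6 of the 12 libraries in the series. It asks what inhibition of the FLT3 kinase changes in cells in which menin is already inhibited. MOLM-13 is an acute monocytic leukaemia line of the FLT3-ITD and MLL-AF9 type, so the groups share both lesions and differ only in the agent. The cultures were seeded in triplicate and kept for 8 days in RPMI 1640 medium with fetal bovine serum and MI-3454, or MI-3454 plus gilteritinib. The other 6 libraries came from cells kept for the same 8 days with DMSO or with gilteritinib alone. They enter the comparison of both gilteritinib effects near the end and some figures. They also enter the choice of tested genes and the scaling of the levels given, but not the main test. The labels used here state no doses. The treatment field carries other compound numbers in replicates 2 and 3 of both groups, and the titles, which all read MI3454, were followed. All values come from 1 cell line, so each p-value reflects how far cultures seeded side by side differ, which may be technical.

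FLT3 is a class III receptor tyrosine kinase. Its internal tandem duplication makes it signal without ligand, through STAT5, the RAS and MAPK cascade and the PI3K and AKT pathway, and gilteritinib blocks its kinase domain. Menin is the scaffold protein through which MLL1 and its fusion proteins reach chromatin at genes such as MEIS1 and the HOXA cluster, and MI-3454 occupies the menin pocket that binds MLL1. STAT5 switches on PIM kinases, D cyclins and its own inhibitors of the SOCS family. ATF4 switches on genes for amino acid synthesis and transport, and SREBP factors do the same for sterol and fatty acid synthesis.

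The promoter of CISH, a SOCS family inhibitor that STAT5 itself switches on, shows the kind of site through which this signalling reaches genes. The stretch below lies at chr3:50611872-50612021 on the minus strand (GRCh38.p14, RefSeq) and runs from 247 to 98 bases before the gene's start. Capitals mark the 4 matches to the STAT motif TTCNNNGAA, which reads the same on both strands.
CISH: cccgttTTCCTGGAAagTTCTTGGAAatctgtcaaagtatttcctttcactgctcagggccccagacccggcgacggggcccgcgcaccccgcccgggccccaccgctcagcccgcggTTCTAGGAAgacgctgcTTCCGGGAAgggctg
In the 9973 tested genes with a promoter in the RefSeq table, 6.2% had at least 1 match in the 300 bases around the start. A match is a description of letters, not evidence of binding.

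Between these groups 4076 of 13972 tested genes, or 29.2%, passed edgeR's quasi-likelihood test at a Benjamini-Hochberg adjusted p under 0.05. With gilteritinib added, 1973 genes (14.1%) rose and 2103 (15.1%) fell. Of these, 601 rose (4.3% of tested genes) and 547 fell (3.91%) by at least 2-fold. The 3 libraries of one group lay clear of the 3 of the other in 6254 genes (44.8%). The balance of rises and falls depended on scaling. With scaling by total counts alone, which moved the median of all genes by 0.10 on the log2 scale, 2462 rose and 1442 fell, so that rises made up 63.1% of calls in place of 48.4%. With scaling on protein-coding genes they made up 57.1%. The number of calls rested on single libraries: it was 2456 without combination replicate 2, 2464 without combination replicate 3 and 2739 without MI-3454 replicate 1, and without MI-3454 replicate 3 it was 5074.

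**Figure D1:**
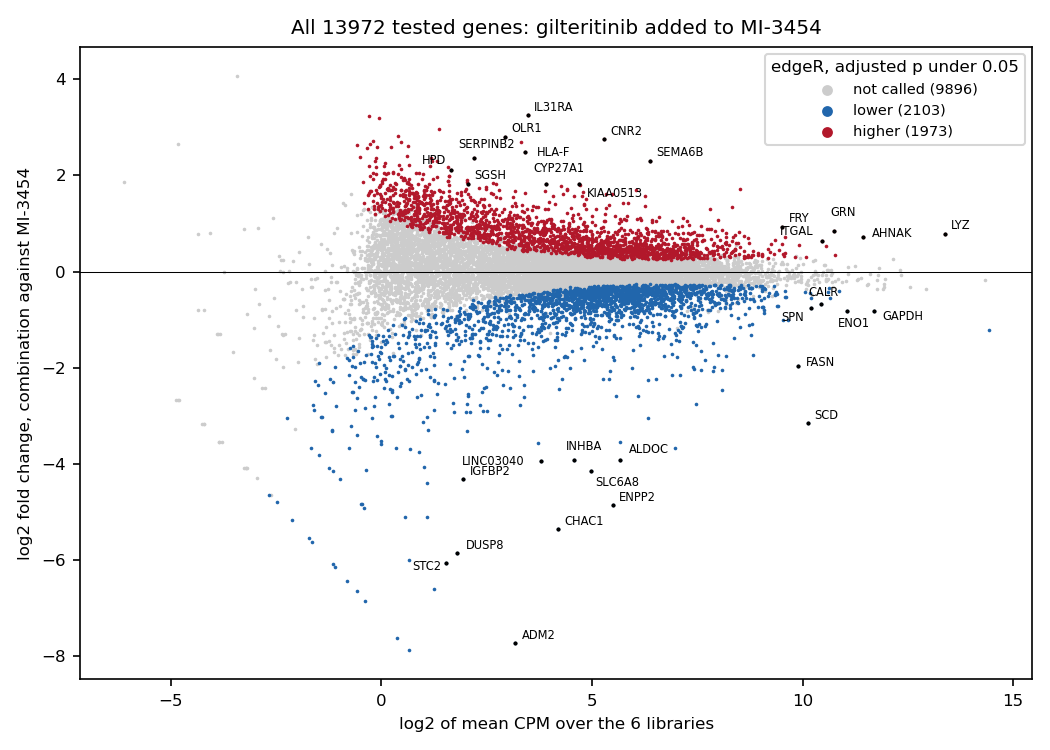
Each point is 1 of the tested genes, with its mean level on the x axis (log2 of CPM over the 6 libraries) and its log2 fold change of combination over MI-3454 on the y axis, coloured by call, and named genes labelled. CHAC1 and SCD sit among the deepest falls, at log2 changes of -5.36 and -3.15, and IL31RA among the highest rises, at 3.26.

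Library properties differed along with treatment. Gene counts ranged from 8.98 to 9.93 M with MI-3454 and from 6.47 to 11.3 M with the combination. Uniquely placed reads that hit no annotated exon, intronic ones among them, made up 17.4% to 25.5% of all uniquely placed reads with MI-3454 and 28.5% to 36.5% with the combination. RN7SL1, an abundant RNA of the particle that targets secreted proteins to the endoplasmic reticulum, took 2.02% to 4.56% against 1.17% to 1.66% of gene counts, with MI-3454 replicate 3 the highest. Both differences had a two-sided exact permutation p of 0.1, the smallest that 3 against 3 libraries can give. Their part in the results below was not tested. As a check of the label, myeloid markers summed to 11510 to 12680 CPM (counts per 1e6, TMM-scaled) with MI-3454 and 16780 to 18340 CPM with the combination, most of it LYZ. Of 55 markers of other cell types 20 were at 0 counts in all 6 libraries, among them CD3E, MS4A1, HBB, PPBP, EPCAM and COL3A1. Others were present: T and NK cell markers, 3 of 9 at 0, summed to 46.7 to 74.5 CPM with MI-3454 and 48.6 to 71.2 CPM with the combination, most of it NKG7, and TRAC had 119 and 24 counts over the groups. Stromal markers, 3 of 10 at 0, summed to 303.8 to 308.2 CPM and 483.6 to 498.9 CPM, most of it PECAM1, which rose by 0.73 on the log2 scale, while KRT18 fell by 1.34. B cell markers, 3 of 7 at 0, summed to 0.719 to 1.52 CPM and 0.142 to 0.423 CPM, and megakaryocyte and platelet markers, 2 of 8 at 0, to 0.780 to 1.54 CPM and 0.607 to 1.28 CPM. Erythroid markers, 6 of 10 at 0, summed to 508 to 694 CPM and 282 to 299 CPM, most of it the transferrin receptor gene TFRC, and dendritic cell markers, 3 of 11 at 0, to 202 to 248 CPM and 189 to 194 CPM, most of it FLT3. The part of these markers in the results was not tested. Exonic bases shared with another annotated gene made up 100% of RN7SL1, 48.5% of DDIT4, 39.4% of DUSP6, 34.0% of LYZ, 30.6% of FCGR1A and 27.9% of RRM2, so the counts of these genes are uncertain. Fewer cells of one kind and less RNA per cell cannot be told apart in such bulk samples.

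STAT5 target and feedback genes were lower with gilteritinib added. Of 17 list members 16 were tested; 10 fell and 1, the repressor BCL6, rose, with a median log2 change of -0.65 against -0.01 over all tested genes. PIM1, PIM2 and PIM3 all fell, the last not without combination replicate 2 or 3 (edgeR adjusted p up to 0.0634), while STAT5A and STAT5B themselves had log2 changes of 0.24 and -0.01 and were not called. The BCL6 call was lost without MI-3454 replicate 1 or 2 or combination replicate 1 or 2 (edgeR adjusted p up to 0.0991), and STAT5A was called, as higher, without MI-3454 replicate 3 (edgeR adjusted p = 0.00427). PIM1 (ENSG00000137193.14, chromosome 6, 37170203 to 37175426, plus strand), a survival kinase, stood at 274, 252 and 298 CPM with MI-3454 and 73.9, 62.0 and 64.4 CPM with the combination. Every combination library was far under every MI-3454 library, and the log2 change was -2.03 ± 0.11 (SE; edgeR adjusted p = 3.68e-07). CCND2, which encodes cyclin D2 and drives entry into the cell cycle, read 144, 157 and 97.5 CPM against 27.2, 30.1 and 25.2 CPM, a log2 change of -2.26 ± 0.16 (edgeR adjusted p = 3.33e-06). Its lowest MI-3454 library was replicate 3 and still lay well above the combination.

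The SOCS feedback genes moved the same way. CISH, whose promoter is printed above, had 98.2, 88.0 and 112 CPM with MI-3454 and 43.9, 39.2 and 34.3 CPM with the combination, a log2 change of -1.33 ± 0.12 (edgeR adjusted p = 1.66e-05). SOCS2, another inhibitor of cytokine signalling, fell from 13.9, 18.2 and 15.5 CPM to 2.86, 3.70 and 4.11 CPM, a log2 change of -2.17 ± 0.20. The groups did not overlap for either gene. IL2RA, the alpha chain of the interleukin 2 receptor, is barely expressed here, with 30 counts over the MI-3454 group and 2 over the combination, a ratio of 15.1 (95% counting interval 3.82 to 130). FLT3 itself was not called: it read 248, 235 and 201 CPM with MI-3454 and 193, 191 and 188 CPM with the combination, a log2 change of -0.25 (edgeR adjusted p = 0.0834, and 0.00344 without MI-3454 replicate 3). Of the 6 called-lower STAT5 genes with a promoter in the table, CISH alone held the STAT motif in this window.

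MAPK feedback and output genes also fell. Of 23 tested members of 24, 14 fell and none rose, with a median log2 change of -0.58. EGR3, an immediate early transcription factor, had the deepest fall, -2.43 ± 0.47, from under 3 CPM. FOSL1, an AP-1 subunit, read 9.58, 11.4 and 16.9 CPM with MI-3454 and 5.03, 5.07 and 4.39 CPM with the combination, a log2 change of -1.37 ± 0.23 (edgeR adjusted p = 0.00111). EGR1 had 15.4, 18.5 and 31.1 CPM against 11.5, 11.8 and 9.50 CPM, a log2 change of -0.97 ± 0.23. MI-3454 replicate 3 was the high library for EGR1 and FOSL1, and the groups did not overlap for either gene. The phosphatase gene DUSP6, a direct readout of ERK activity in many cells, was not called, with 54.1, 47.5 and 44.3 CPM against 41.6, 37.9 and 41.4 CPM and a log2 change of -0.26 (edgeR adjusted p = 0.0859). FOS, at 0.29, DUSP1, at -0.01, and JUNB, at -0.15, were not called either. Without MI-3454 replicate 3, DUSP6 was called as lower (edgeR adjusted p = 0.0155) and FOS as higher (0.0011).

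Among 19 tested PI3K and FOXO genes, 5 (26.3%) rose and 3 (15.8%) fell, with a median of 0.22. Of all tested genes 14.1% rose and 15.1% fell, so the falls were close to that share. FOXO1, a transcription factor that AKT keeps out of the nucleus, rose from 7.69, 5.86 and 4.34 CPM to 13.9, 12.8 and 16.3 CPM, a log2 change of 1.26 ± 0.21. DDIT4, an inhibitor of mTORC1 that FOXO and ATF4 can both induce, went the other way, from 77.2, 70.8 and 95.8 CPM to 16, 14.5 and 9.36 CPM. The number of these genes that rose was 10 (and 5 fell) without MI-3454 replicate 3, 3 without combination replicate 2 and 8 with scaling by total counts.

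**Figure D2:**
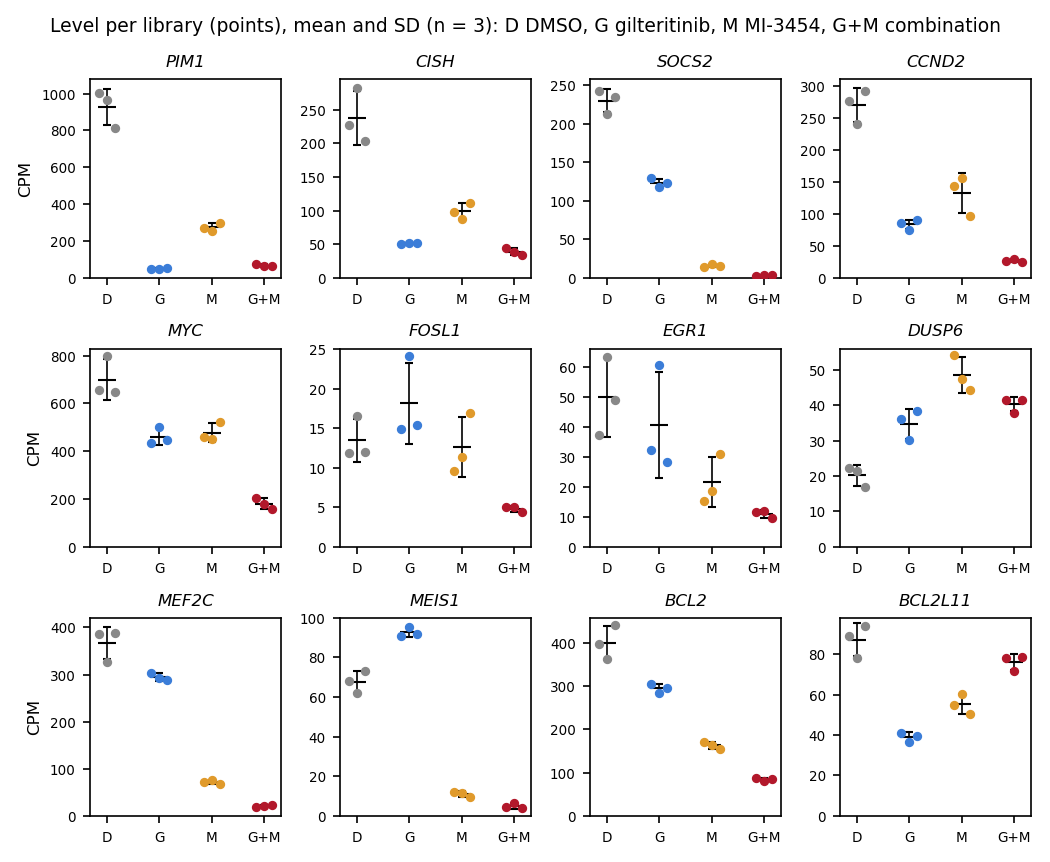
Each panel shows 1 gene of FLT3 signalling, the menin and MLL1 program or survival, with CPM on the y axis and the 4 treatments on the x axis. Points are libraries, and the line and bar give the mean and SD of 3. PIM1, CCND2, MYC and MEF2C in the combination libraries lie below all MI-3454 libraries, while BCL2L11 lies above them.

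MYC and the machinery that makes ribosomes were lower with both agents. MYC, the transcription factor that drives growth, read 460, 452 and 523 CPM with MI-3454 and 205, 179 and 160 CPM with the combination, a log2 change of -1.39 ± 0.11 (edgeR adjusted p = 8.87e-06). Of 12 tested genes of its network MYC alone fell, and MLXIP and MYCL rose by 0.47 and 0.45. Without MI-3454 replicate 3, edgeR also called MXD1 as lower (adjusted p = 0.0236) and MXD3 as higher (adjusted p = 0.027). The call of MYCL was lost without MI-3454 replicate 1 or any 1 combination library (edgeR adjusted p up to 0.0845). Of 26 ribosome biogenesis and RNA polymerase I genes, 23 (88.5%) fell, against 15.1% of all tested genes, and the list summed to 4231 to 4485 CPM with MI-3454 and 2626 to 2919 CPM with the combination. None was called as higher, though 1 was higher at an unadjusted edgeR p under 0.05. NOP2 was called as higher without MI-3454 replicate 3 (1.29, edgeR adjusted p = 0.0302). DDX21, a nucleolar helicase, had 285, 289 and 227 CPM against 121, 126 and 115 CPM, a log2 change of -1.14 ± 0.11. NOLC1, which serves small nucleolar RNPs, fell by 1.06 on the log2 scale, NOP16 by 0.97 and MRTO4 by 0.91. Of the 40 cytosolic ribosomal protein genes none was called by edgeR or DESeq2, with 2 at an unadjusted edgeR p under 0.05 and a median of -0.16. The E-box CACGTG, the letters MYC and its partners bind, was found in the promoter window of 5 of the 18 called-lower biogenesis genes with a promoter (27.8%), against 10.4% of all promoters. The call of FBL, 1 of these 5, was lost without MI-3454 replicate 1 or combination replicate 2 or 3 (edgeR adjusted p up to 0.1).

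Sterol synthesis genes fell almost as a block. Of 27 list members 26 were tested, 22 (84.6%) fell and none rose, with a median log2 change of -1.03 and a summed level of 4234 to 4848 CPM with MI-3454 against 2105 to 2386 CPM with the combination. The fallen genes covered the pathway from acetyl-CoA condensation (ACAT2, HMGCS1) through the mevalonate steps (MVK, MVD) and squalene (FDFT1, SQLE) to the last reduction (DHCR7). HMGCS1, which makes HMG-CoA, read 233, 185 and 168 CPM with MI-3454 and 43.0, 41.6 and 46.8 CPM with the combination, a log2 change of -2.15 ± 0.13 (edgeR adjusted p = 7.23e-07). INSIG1, the sterol-sensing anchor that is itself an SREBP target, stood at 505, 418 and 392 CPM against 108, 112 and 94.6 CPM, a log2 change of -2.05 ± 0.12. LSS and DHCR7 fell by 1.78 and 1.76. No combination library reached the lowest MI-3454 library for any of these 4 genes. Both SREBP genes were called, SREBF1 at -1.76 and SREBF2 at -0.48 (edgeR adjusted p = 0.057 for SREBF2 without combination replicate 2), and their chaperone SCAP was not, at -0.11.

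Fatty acid genes held some of the largest falls by level. Of 12 tested members of 13, 8 fell and none rose, and the list summed to 4710 to 5279 CPM with MI-3454 and 1196 to 1449 CPM with the combination. SCD (ENSG00000099194.6, chromosome 10, 100347124 to 100364834, plus strand), the desaturase that makes oleate, stood at 2187, 1883 and 1974 CPM with MI-3454 and 257, 231 and 190 CPM with the combination. That is a log2 change of -3.15 ± 0.13 (edgeR adjusted p = 7.4e-08), or 8.86-fold lower, with no library between the groups. FASN, the fatty acid synthase, had 1486, 1399 and 1649 CPM against 428, 382 and 341 CPM, a log2 change of -1.97 ± 0.12. FADS2 and FADS1, neighbouring desaturase genes for polyunsaturated fatty acids that share a few exonic bases, fell by 2.75 and 2.24. The LXR target ABCA1, which exports cholesterol from cells, fell as well, from 185, 229 and 178 CPM to 73.9, 86.1 and 57.0 CPM, and 3 of 7 tested LXR targets fell. The call of MYLIP, the third of them, was lost without any 1 library other than MI-3454 replicate 3 (edgeR adjusted p up to 0.157).

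The sterol element TCACNCCAC was found, on either strand, in the promoter window of 1 of 16 called-lower sterol genes with a promoter and of 0 of 7 fatty acid genes, against 1.09% of all promoters. The 1 gene was SREBF2, and its stretch is shown because this gene encodes the factor that reads such elements. It lies at chr22:41832952-41833000, plus strand (GRCh38.p14, RefSeq), with the match in capitals.
SREBF2: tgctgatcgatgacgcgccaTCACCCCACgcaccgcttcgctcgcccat

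**Figure D3:**
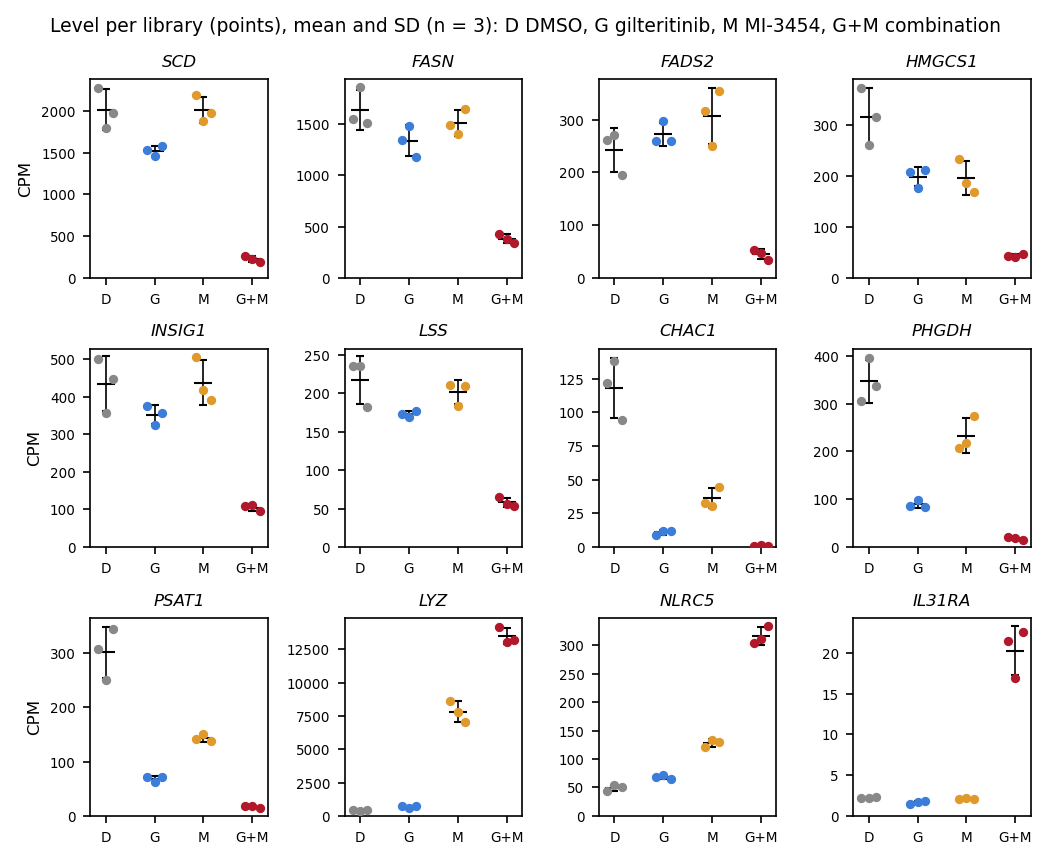
Each panel shows 1 gene of lipid or amino acid synthesis or of the mature or surface phenotype, with CPM on the y axis and the 4 treatments on the x axis. Points are libraries, and the line and bar give the mean and SD of 3. SCD, PHGDH and CHAC1 in the combination lie below every MI-3454 library, and LYZ, NLRC5 and IL31RA lie above.

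ATF4 and the genes for amino acid synthesis fell further than any other list here of more than 10 tested genes, by the median. All 23 members were tested; 20 (87.0%) fell, 19 of them by at least 2-fold, and the median log2 change was -1.34. The summed level was 3071 to 3528 CPM with MI-3454 and 1017 to 1172 CPM with the combination. CHAC1 (ENSG00000128965.13, chromosome 15, 40952962 to 40956519, plus strand), which degrades glutathione, had 32.9, 30.6 and 44.5 CPM with MI-3454 and was close to 0 with the combination, at 0.520, 1.48 and 0.567 CPM, a log2 change of -5.36 ± 0.29 (edgeR adjusted p = 3.68e-07). PHGDH, the first enzyme of serine synthesis, read 206, 218 and 275 CPM against 20.1, 18.8 and 15.2 CPM, a log2 change of -3.67 ± 0.15. The next enzyme of that path, PSAT1, had 142, 151 and 137 CPM against 18, 18.7 and 14.7 CPM, a log2 change of -3.05 ± 0.11. In each of these genes the groups were widely apart. ALDH1L2, a mitochondrial folate enzyme, fell by 3.54.

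The exception was SLC7A11, the cystine transporter, which rose from 60.8, 66.4 and 40.5 CPM to 70.4, 78 and 87.8 CPM, a log2 change of 0.50 (edgeR adjusted p = 0.0367). The SLC7A11 call was lost without MI-3454 replicate 1 or combination replicate 2 or 3 (edgeR adjusted p up to 0.142). DDIT3, at -0.57, and CEBPB, at 0.31, were not called, but CEBPB was called as higher without MI-3454 replicate 3 (edgeR adjusted p = 0.00191) and DDIT3 as lower without MI-3454 replicate 1 (0.046). ATF4 itself fell by 1.15. ASNS, the asparagine synthetase, read only 2, 5.34 and 2.93 CPM with MI-3454 and 0.868, 0.739 and 1.56 CPM with the combination, a log2 change of -1.75 ± 0.43, but 79.7% of its exonic bases are shared with another annotated gene, so its counts are uncertain.

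Aminoacyl-tRNA synthetases, which load amino acids onto tRNA, fell in 16 of 18 cases (88.9%), with a median of -0.69, and summed to 3415 to 3435 CPM with MI-3454 against 2080 to 2239 CPM with the combination. AARS1, for alanine, had 233, 242 and 264 CPM against 99.4, 87.4 and 80.1 CPM, a log2 change of -1.46 ± 0.11 (edgeR adjusted p = 3.33e-06). GARS1, IARS1 and TARS1 fell by 1.41, 1.08 and 1.07.

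The ATF4 composite motif TGATGNAA, searched on both strands, was found in 1.71% of all promoter windows. It was found in 4 of 17 called-lower ATF4 list genes with a promoter (23.5%), namely CHAC1, ASNS, SLC3A2 and ATF3. It was also found in 6 of 12 called-lower synthetase genes (50%), which were AARS1, CARS1, IARS1, MARS1, NARS1 and TARS1. The NARS1 call was lost without combination replicate 1 or 2 (edgeR adjusted p up to 0.07). The stretches below show the match in capitals for the gene with the deepest fall, a synthesis enzyme, a regulator and a synthetase, each 5′ to 3′ on the gene's strand (GRCh38.p14, RefSeq). The positions follow RefSeq's gene starts, which for CHAC1 and ASNS lie inside the gene as GENCODE 29 draws it, so that these stretches fall within that annotation's gene. They lie at chr15:40953242-40953289 (plus), chr7:97872449-97872496 (minus), chr1:212565196-212565243 (plus) and chr16:70289666-70289713 (minus). In CHAC1 and AARS1 the motif is on the opposite strand and so appears as its reverse complement.
CHAC1: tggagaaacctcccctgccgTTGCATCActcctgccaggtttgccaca
ASNS: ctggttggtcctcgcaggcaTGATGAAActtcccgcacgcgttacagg
ATF3: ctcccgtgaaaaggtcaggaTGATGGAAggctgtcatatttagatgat
AARS1: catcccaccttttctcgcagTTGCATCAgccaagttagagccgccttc

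Glycolysis genes mostly fell. Of 25 glycolysis and pentose phosphate genes, 15 fell and 3 rose (HK3, PFKFB3 and HK1), with a median of -0.43. ALDOC, the brain-type aldolase, dropped from 96.7, 81.8 and 109 CPM to 7.72, 6.66 and 4.11 CPM, a log2 change of -3.91 ± 0.18 (edgeR adjusted p = 1.32e-07), and ENO2 fell by 2.37. LDHA, which turns pyruvate into lactate, read 723, 599 and 556 CPM against 264, 251 and 230 CPM, a log2 change of -1.32 ± 0.12. SLC2A3, the glucose carrier GLUT3, fell by 1.26. GAPDH, from 4059, 3634 and 5142 CPM to 2705, 2354 and 2133 CPM, had the largest fall in mean CPM of any protein-coding gene. In all 5 genes the groups did not overlap.

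Purine and pyrimidine synthesis genes fell in 13 of 18 cases, led by PPAT and PAICS, enzymes of the purine ring, both at -1.21. Chaperone genes fell in 14 of 19 cases, among them the endoplasmic reticulum protein genes DNAJB9 at -1.26 and HSPA5 at -0.79, and the cytosolic HSPA8 at -1.0. HSPA8 stood at 1047, 951 and 974 CPM with MI-3454 and 542, 477 and 454 CPM with the combination.

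S phase genes were modestly lower. Of 28 members 17 fell, none of them by 2-fold, with a median of -0.38. RRM2, the ribonucleotide reductase subunit that limits dNTP supply, read 236, 200 and 190 CPM against 118, 114 and 125 CPM, a log2 change of -0.80 ± 0.11, with no overlap. CDT1 and CDC6, which license replication origins, fell by 0.76 and 0.64. The number of fallen S phase genes was 6 without MI-3454 replicate 1, 11, 6 and 7 without combination replicates 1, 2 and 3, and 9 with scaling by total counts. Of 26 G2 and M phase genes 4 fell, close to the 15.1% of all genes, led by CCNA2 at -0.56. That number was 10 without MI-3454 replicate 2 and 1 without MI-3454 replicate 1 or combination replicate 2 or 3. Of 13 tested D cyclin and cell cycle inhibitor genes 8 fell, among them the inhibitors CDKN1A at -0.66 and CDKN1C at -1.11 beside CCND2. For CCND1 only 23 and 3 counts were seen, a ratio of 7.7 (95% counting interval 2.33 to 40.1), and its call was lost without any 1 library other than MI-3454 replicate 3.

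Replication-dependent histone genes fell in 26 of 44 tested cases, with a median of -0.80, but the spread with MI-3454 was wide. H3C12 read 102, 80.0 and 232 CPM with MI-3454 and 63.8, 46.2 and 45.8 CPM with the combination, a log2 change of -1.40 ± 0.31 (edgeR adjusted p = 0.00652). MI-3454 replicate 3, also the library richest in RN7SL1, was the high one for H3C12, H4C9 and H2BC9. The number of fallen histone genes was 43 without MI-3454 replicate 2, 14 without combination replicate 2, 10 without combination replicate 3 and 14 by DESeq2. These genes have near-identical copies, so how reads were divided among them is uncertain.

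Some targets of MLL fusion proteins were lower with both agents than with menin inhibition alone. Of 21 tested members outside the HOXA cluster, 10 fell, 9 were not called and 2 (RUNX2 and ZEB2) rose, the latter not without any 1 library other than MI-3454 replicate 3 (edgeR adjusted p up to 0.148). MEF2C (ENSG00000081189.15, chromosome 5, 88717117 to 88904257, minus strand), a transcription factor of myeloid leukaemia stem cells, had 71.5, 77.0 and 68.1 CPM with MI-3454 and 18.4, 20.4 and 22.1 CPM with the combination, a log2 change of -1.83 ± 0.11 (edgeR adjusted p = 7.56e-07). MEIS1, the HOX cofactor whose level is known to depend on menin in MLL-fusion cells, was low with MI-3454, at 12.1, 11.4 and 9.33 CPM, and lower with both, at 4.60, 6.76 and 3.97 CPM, a log2 change of -1.08 ± 0.21 (edgeR adjusted p = 0.00324). The groups did not overlap for either gene. ZNF521 and PBX3, a further HOX cofactor, fell by 1.00 and 0.83. The number of fallen members was 6 without MI-3454 replicate 1, 5 and 6 without combination replicates 2 and 3, and 6 with scaling by total counts.

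Of 10 tested HOXA genes 2 (20%) fell and none rose, the falls close to the 15.1% of all tested genes. HOXA9, at 37.8, 37.1 and 39.8 CPM against 29.6, 31.8 and 27.1 CPM, had a log2 change of -0.36 ± 0.11 (edgeR adjusted p = 0.0246). That call was lost without MI-3454 replicate 1 or any 1 combination library (edgeR adjusted p up to 0.109) and with scaling by total counts. HOXA11 fell by 0.65, though 23.8% of its exonic bases lie in an antisense gene. MEN1, which encodes menin, was not called, at -0.28, except without MI-3454 replicate 2 (edgeR adjusted p = 0.0285). Among the 11 menin and MLL1 complex genes, JUND and WDR5 fell (18.2%) and KMT2A rose (9.1%), close to the 15.1% and 14.1% of all tested genes. The WDR5 call was lost without MI-3454 replicate 1 or combination replicate 2 or 3 (edgeR adjusted p up to 0.0787). Of 14 DOT1L and super elongation complex genes none was called by edgeR or DESeq2, with 2 at an unadjusted edgeR p under 0.05. Without MI-3454 replicate 3, edgeR called CCNT1 as lower (-0.41, adjusted p = 0.00107) and ELL as higher (0.24, adjusted p = 0.0278).

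Of 15 tested BCL2 family genes 2 rose and 3 fell, close to the shares of all genes. With 1 library left out 1 to 4 rose: 1 without MI-3454 replicate 1 or combination replicate 2, and 4 without MI-3454 replicate 3. BCL2, the anti-apoptotic founder of the family, read 170, 164 and 156 CPM with MI-3454 and 88.1, 81.4 and 86.1 CPM with the combination, a log2 change of -0.93 ± 0.09 (edgeR adjusted p = 2.93e-05). BCL2L11, which encodes the death activator BIM, rose from 55.0, 60.1 and 50.2 CPM to 78.2, 71.8 and 78.8 CPM, a log2 change of 0.48 ± 0.10 (edgeR adjusted p = 0.00481). Neither gene's groups overlapped. BMF, another activator, rose by 0.35, though not without MI-3454 replicate 1 or combination replicate 2 (edgeR adjusted p up to 0.122), and PMAIP1, which encodes NOXA, fell by 0.66. MCL1, at 267, 265 and 267 CPM against 215, 226 and 213 CPM, had a log2 change of -0.28 (edgeR adjusted p = 0.0326), a call that was kept without MI-3454 replicate 3 and lost without any other single library of the 6 (up to 0.123). Of 18 tested p53 target genes 2 rose and 3 fell, close to the shares of all genes, and 0 rose by edgeR without MI-3454 replicate 1 or combination replicate 2 or 3, when SESN1 and TP53INP1 were not called (edgeR adjusted p up to 0.199).

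Genes of mature myeloid cells rose in part. Of 31 monocyte and macrophage genes 22 were tested, 10 (45.5%) rose and 4 fell, and the list summed to 8761 to 10400 CPM with MI-3454 and 15200 to 16440 CPM with the combination, most of it LYZ. LYZ, the lysozyme gene, read 8642, 7830 and 7019 CPM with MI-3454 and 14200, 13060 and 13220 CPM with the combination, a log2 change of 0.79 ± 0.12 (edgeR adjusted p = 0.000555). S100A8, a subunit of the calprotectin dimer of phagocytes, had 8.02, 8.84 and 8.79 CPM against 23.9, 25 and 27.2 CPM, a log2 change of 1.57 ± 0.13, and its partner S100A9 rose by 1.40. The groups did not overlap for these genes. FCN1, a lectin of monocytes, rose by 2.18 from about 1 CPM. CD14, the classical monocyte marker, was not called: it read 11, 13.5 and 13.7 CPM against 16.1, 13.7 and 13.3 CPM, with overlapping groups and a log2 change of 0.19. Of the 4 falls 2 were called without combination replicate 2. Among the fallen were the Fc receptor gene FCGR1A at -0.84 and the complement receptor gene C5AR1 at -1.14.

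Neutrophil genes followed. Of 24 list members 13 were tested, 8 rose and 2, TREM1 and S100P, fell. CXCR2, a chemokine receptor of neutrophils, had 14.9, 15.7 and 15.8 CPM with MI-3454 and 42.9, 40.6 and 38.7 CPM with the combination, a log2 change of 1.40 ± 0.11 (edgeR adjusted p = 6.08e-06). HP and FCAR, haptoglobin and the IgA receptor, rose by 1.17 and 1.06. ITGAM, which encodes CD11b, read 61.4, 79.2 and 78.8 CPM against 96.0, 92.5 and 92.3 CPM, a log2 change of 0.36 (edgeR adjusted p = 0.0284). That call was lost without MI-3454 replicate 1 or any 1 combination library (edgeR adjusted p up to 0.0995). The number of neutrophil genes that rose was 4 without MI-3454 replicate 1 and 5 without any 1 combination library. CYBB, a membrane subunit of the phagocyte oxidase, rose by 0.72.

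Lysosome genes rose in 11 of 26 tested cases (42.3%) and fell in 1, CTSC, whose call was kept only without MI-3454 replicate 3 among the fits that left out 1 library. GRN, which encodes progranulin, stood at 1142, 1131 and 1427 CPM with MI-3454 and 2479, 2111 and 2072 CPM with the combination, a log2 change of 0.86 ± 0.12. TFEB, the transcription factor of lysosome genes, rose from 23.2, 25.8 and 28.9 CPM to 51.2, 48.8 and 44.5 CPM, a log2 change of 0.90 ± 0.12 (edgeR adjusted p = 0.000224). Neither gene's groups overlapped. The number of lysosome genes that rose was 5 without MI-3454 replicate 1 or 2, or without combination replicate 1 or 2.

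Genes of primary granules, which mark earlier myeloid stages, did not share that direction. Of 12 tested, 4 (33.3%) fell and none rose, against 15.1% and 14.1% of all tested genes. The groups did not overlap in 3 of the 12, a smaller share than the 44.8% of all tested genes. The call of RNASE2 as lower was lost without MI-3454 replicate 1 or 3 or combination replicate 2 or 3 (edgeR adjusted p up to 0.197). ELANE was called as lower only without MI-3454 replicate 2 or combination replicate 1 (edgeR adjusted p = 0.0443 and 0.0435). MPO, myeloperoxidase, read 640, 522 and 662 CPM with MI-3454 and 318, 270 and 264 CPM with the combination, a log2 change of -1.09 ± 0.12 (edgeR adjusted p = 6.99e-05). CST7 and PRSS57 fell by 2.06 and 1.01. GATA2, a transcription factor of progenitors and mast cells, had 89.2, 86.9 and 122 CPM against 30.4, 21.9 and 21.3 CPM, a log2 change of -2.0 ± 0.16, and the eosinophil peroxidase gene EPX fell by 1.57. All libraries with both agents lay below all with MI-3454 in MPO, GATA2 and EPX. KLF4, a transcription factor of monocytes, rose by 0.84. Of 16 tested myeloid lineage transcription factors 2 rose (12.5%) and 3 fell (18.8%), close to the 14.1% and 15.1% of all tested genes. The falls were GATA2, EGR2 at -1.43 and RUNX1 at -0.33. The last 2 calls were each lost in several fits that left out 1 library (edgeR adjusted p up to 0.114 and 0.11).

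Some antigen presentation genes of class I rose. Of 12 tested members of 13, 7 rose and none fell. NLRC5, the transactivator of class I genes, read 121, 134 and 130 CPM with MI-3454 and 303, 311 and 334 CPM with the combination, a log2 change of 1.31 ± 0.10 (edgeR adjusted p = 3.33e-06), with the groups far apart. HLA-F had 2.90, 2.36 and 4.34 CPM against 17.5, 16.8 and 19.7 CPM, and the immunoproteasome gene PSMB9 rose by 0.66. HLA genes resemble one another and HLA-F shares exonic bases with antisense genes, so its counts are uncertain. The number of class I genes that rose was 4 without MI-3454 replicate 1 or 2 or any 1 combination library. The class II transactivator gene CIITA rose from 2.34, 2.77 and 2.93 CPM to 4.51, 5.81 and 7.37 CPM, a log2 change of 1.11 ± 0.25, whereas HLA-DRA, at 1.56, 0.925 and 1.08 CPM against 0.520, 0.422 and 0.425 CPM, fell by 1.32, a call lost without MI-3454 replicate 1 or any 1 combination library (edgeR adjusted p up to 0.129). Of 25 tested interferon-stimulated genes 6 rose and 3 fell, the falls no more frequent than among all genes. Without MI-3454 replicate 1 or combination replicate 2 or 3 there were 3 rises, and the falls were 2 without MI-3454 replicate 1 or combination replicate 1 or 3 and 1 without combination replicate 2.

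Chemokine and inflammatory genes fell in 5 of 14 tested cases, and 1, CCL23, rose. CCL5, which attracts T cells and monocytes, had 147, 165 and 207 CPM with MI-3454 and 67.8, 64.0 and 48.8 CPM with the combination, a log2 change of -1.51 ± 0.15. CCL3 fell by 2.75, with 60.2% of its exonic bases shared with an antisense gene. The call of CCL4 as lower was lost without MI-3454 replicate 2 or combination replicate 2 or 3 (edgeR adjusted p up to 0.0823). That of OSM, also lower, was lost without combination replicate 2 (edgeR adjusted p = 0.0615). AXL, a receptor kinase known as a bypass route around FLT3 inhibition, read 3.12, 7.91 and 6.18 CPM with MI-3454 and 0.954, 1.16 and 0.284 CPM with the combination, a log2 change of -2.74 ± 0.44 (edgeR adjusted p = 0.000875). The groups did not overlap for CCL5 or AXL.

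**Figure D4:**
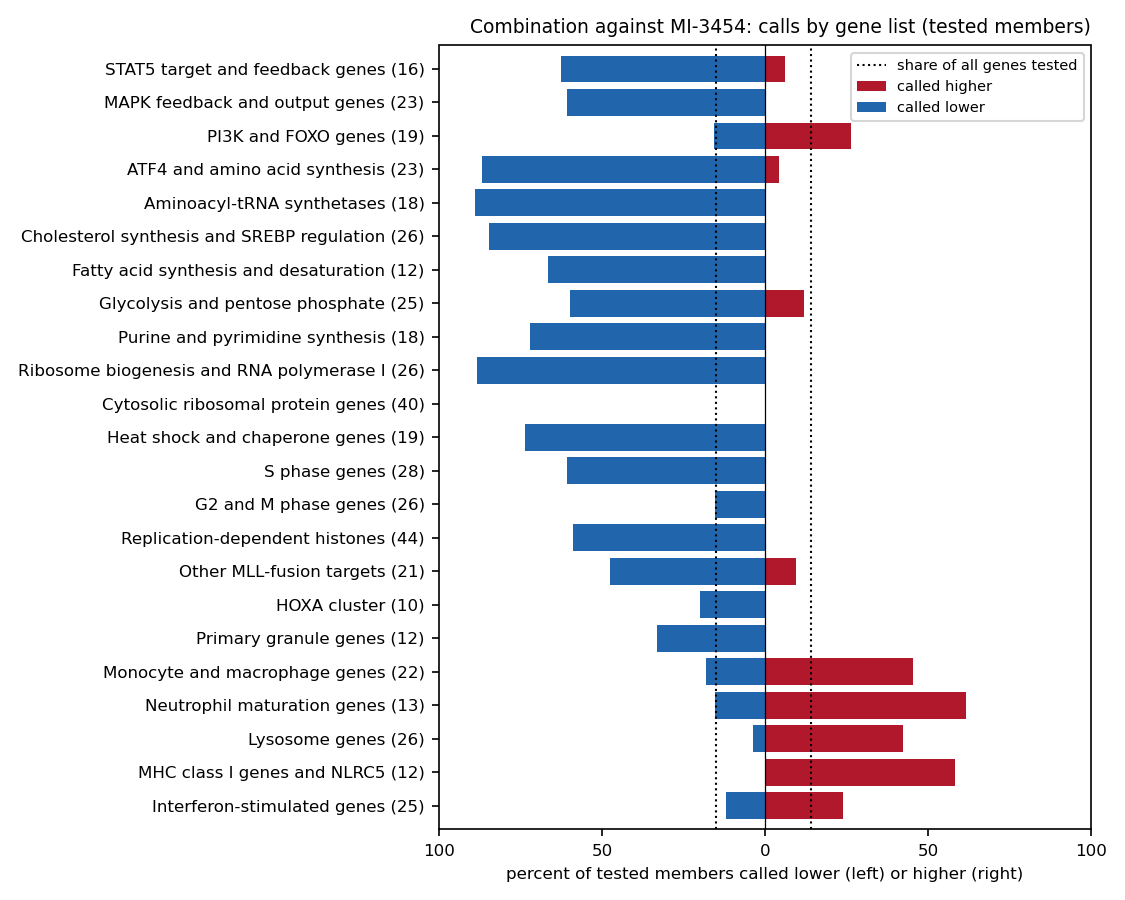
For 23 gene lists the bars give the percentage of tested members that were higher (to the right) or lower (to the left) with the combination than with MI-3454, and the dotted lines give the shares of all tested genes, 14.1% and 15.1%. Aminoacyl-tRNA synthetase, ribosome biogenesis, ATF4 and cholesterol genes reach 84.6% to 88.9% lower.

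The largest rises, among protein-coding genes whose groups did not overlap and whose higher mean was at least 5 CPM, began with IL31RA. IL31RA (ENSG00000164509.15, chromosome 5, 55851379 to 55922853, plus strand), a cytokine receptor of the interleukin 6 receptor family, stood at 2.12, 2.16 and 2.06 CPM with MI-3454 and 21.4, 16.9 and 22.5 CPM with the combination, a log2 change of 3.26 ± 0.19 (edgeR adjusted p = 7.17e-07). OLR1, the receptor for oxidised LDL, followed at 2.81 ± 0.26. CNR2, the cannabinoid receptor of immune cells, rose from 9.47, 12 and 8.89 CPM to 67.1, 69.6 and 68.6 CPM, a log2 change of 2.76 ± 0.13. The next were HLA-F, SERPINB2, the semaphorin gene SEMA6B, HPD, the lysosomal sulfatase gene SGSH, CYP27A1 and KIAA0513, with log2 changes from 2.50 down to 1.82. CYP27A1, a sterol hydroxylase, read 5.46, 7.40 and 7.16 CPM against 25.9, 20.4 and 24.2 CPM.

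The largest falls, under the same conditions, began with ADM2. ADM2, a peptide hormone of the adrenomedullin family, had 17.5, 15.5 and 21.1 CPM with MI-3454 and 0, 0.211 and 0 CPM with the combination. Its counts over the groups were 503 and 2, a ratio of 253 (95% counting interval 69.6 to 2091). For STC2, another secreted hormone, the ratio was 80.3 (21.9 to 669), and for the phosphatase gene DUSP8 it was 64.9 (21.9 to 318). ENPP2, which encodes autotaxin, the enzyme that makes lysophosphatidic acid, read 74.3, 106 and 82.4 CPM against 3.38, 3.27 and 2.13 CPM, a log2 change of -4.85 ± 0.19 (edgeR adjusted p = 5.4e-08). INHBA, the activin A subunit, fell from 37.3, 52.6 and 45.5 CPM to 3.12, 3.17 and 2.41 CPM. The creatine transporter gene SLC6A8 fell by 4.16 and the growth factor binding protein gene IGFBP2 by 4.32. CHAC1, ALDOC and LINC03040, which the annotation used here lists as protein-coding, complete these 10.

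By mean CPM the largest rises after LYZ included those of AHNAK (log2 change 0.71), GRN, the integrin gene ITGAL (0.64) and FRY (0.94). The largest falls after GAPDH were in SCD, ENO1 (-0.81), FASN, the calreticulin gene CALR (-0.68) and SPN (-0.77), which encodes the leukocyte sialoglycoprotein CD43.

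Long noncoding classes held more rises than falls, without a test of the difference from coding genes. Of 507 tested lincRNAs 113 rose and 22 fell, of 614 antisense genes 127 rose and 17 fell, and of 177 sense-intronic genes 67 rose and 1 fell, against 1382 up and 1997 down among 11487 protein-coding genes. Short noncoding classes were mixed: of 32 snoRNAs 0 rose and 9 fell, and of 30 miscellaneous RNAs 5 rose and 8 fell. Of 22 snRNAs 3 rose and 3 fell, close to the 14.1% and 15.1% of all tested genes. Of 34 microRNA genes 7 rose and 3 fell, the falls below the share of all tested genes. More rises than falls were also seen among pseudogenes. Of 236 processed pseudogenes 55 rose and 4 fell, and of 196 transcribed unprocessed ones 40 rose and 8 fell. Of 77 other unprocessed ones 13 rose and 5 fell, whereas of 4 polymorphic ones 0 rose and 1 fell. Reads outside exons, introns included, were also more frequent in every combination library (28.5% to 36.5% against 17.4% to 25.5%), and whether the counting used strand is not given in the sources used here, so reads of antisense and sense-intronic genes cannot be told apart from those of their hosts. CBR3-AS1, antisense to a carbonyl reductase gene, rose from 3.56, 3.29 and 3.04 CPM to 9.11, 11.4 and 11.5 CPM. OLMALINC fell by 1.52, and MIR155HG, the host of the microRNA miR-155, fell from 7.91, 10.6 and 8.03 CPM to 3.64, 3.70 and 3.26 CPM. The groups did not overlap for CBR3-AS1 or MIR155HG.

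How gilteritinib acted with and without MI-3454 was compared in libraries that share no sample. Against DMSO, gilteritinib alone raised 967 genes (6.92%) and lowered 1143 (8.18%). With replicate numbers as a block these were 2474 and 2454, and all counts for gilteritinib alone below come from the fit without the block. Of the 2103 genes lowered on top of MI-3454, 537 were also lowered by gilteritinib alone, which is 25.5% of the former and 47.0% of the latter, and 108 were raised. Of the 1973 raised, 257 were also raised, 13% and 26.6% of each list, and 87 were lowered. Among the 989 genes called in both, 80.3% moved the same way. Across all tested genes the log2 changes had a Pearson r of 0.29, given as a description because genes are not independent replicates.

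The difference between the effects was tested as an interaction over all 12 libraries, with positive values where gilteritinib's log2 change was higher under MI-3454. It was called for 915 genes in the positive (6.55%) and 1221 in the negative direction (8.74%). With scaling by total counts, which moved the median of all genes by 0.13, these numbers were 1113 and 809, so 57.9% of calls were positive in place of 42.8%. Without combination replicate 2 or 3 the interaction was called for 1365 and 1305 genes.

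**Figure D5:**
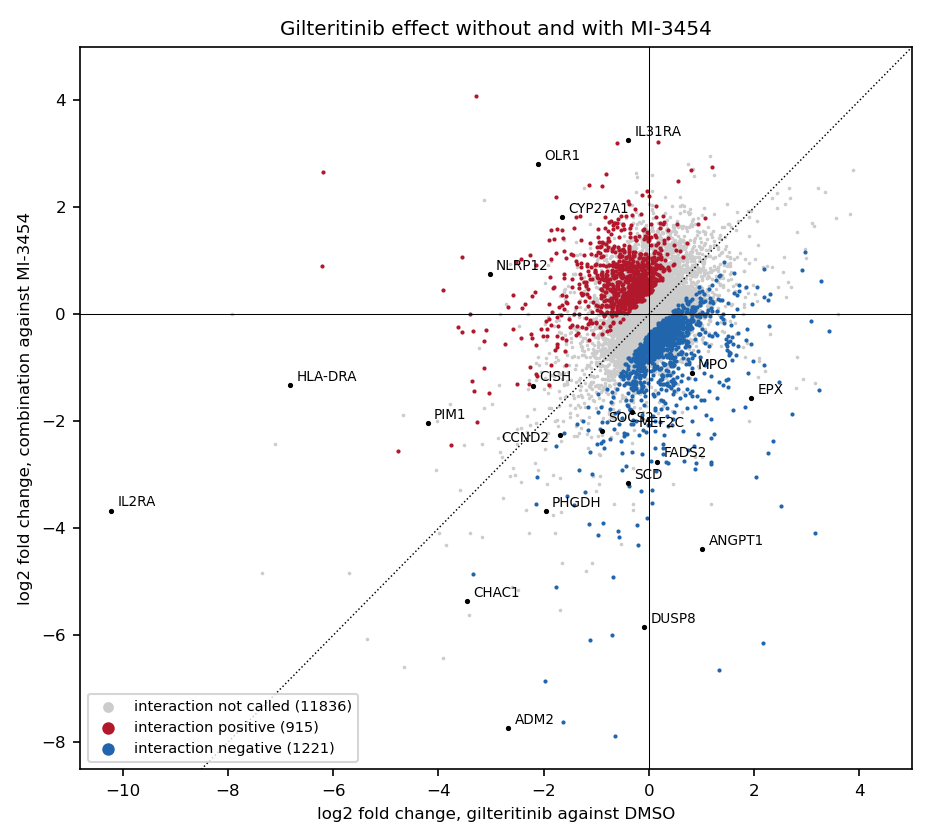
Each point is 1 tested gene, with the log2 fold change of gilteritinib over DMSO on the x axis and of combination over MI-3454 on the y axis, coloured by the call of the interaction. PIM1 fell on both axes, at -4.21 and -2.03, whereas MPO rose on the x axis, at 0.82, and fell on the y axis, at -1.09.

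Lipid synthesis genes fell more under MI-3454. Gilteritinib alone lowered 4 of 26 cholesterol and 4 of 12 fatty acid genes, against 22 and 8 on top of MI-3454, and the interaction was negative for 16 and 8 of them. SCD changed by -0.41 with gilteritinib alone and -3.15 on top of MI-3454, an interaction of -2.75 ± 0.17. The ATF4 list fell under both conditions, 21 of 23 genes with gilteritinib alone, and its interaction was negative for 10 and positive for 2. SLC7A11 was one of those 2, at -1.82 with gilteritinib alone and 0.50 on top of MI-3454. The STAT5 list split, 4 positive and 4 negative: PIM1 had an interaction of 2.17 ± 0.16 and SOCS2 one of -1.29 ± 0.18. Mean PIM1 fell from 927.5 to 50.3 CPM with gilteritinib alone and from 274.6 to 66.8 CPM on top of MI-3454. The part of the different starting levels in the interactions was not tested. The negative count of the STAT5 list was 2 without MI-3454 replicate 1, combination replicate 2 or 3, DMSO replicate 3 or gilteritinib replicate 1 or 3, and with scaling by total counts.

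Cell cycle and primary granule genes had mostly negative interactions. Gilteritinib alone raised 13 of 28 S phase and 20 of 26 G2 and M phase genes and lowered none, and the interaction was negative for 22 of each list. With a single library left out it was negative for 17 to 22 S phase and 15 to 24 G2 and M phase genes. It raised 7 of 12 primary granule genes, of which 9 had a negative interaction: MPO rose by 0.82 with gilteritinib alone and fell by 1.09 on top of MI-3454, an interaction of -1.92 ± 0.15. GATA2 and EPX likewise changed by 0.83 and 1.94 alone and by -2.0 and -1.57 on top of MI-3454. BCL2L11 went the other way, at -1.15 alone and 0.48 on top of MI-3454, an interaction of 1.62 ± 0.14. Interferon-stimulated genes, 9 of 25 lower with gilteritinib alone, had 8 positive interactions, and so did 4 of 6 tested class II genes. MEIS1 and MEF2C, with log2 changes of 0.46 and -0.32 for gilteritinib alone, had interactions of -1.54 ± 0.21 and -1.52 ± 0.14.

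Single genes with the largest positive interactions included NLRP12, an inhibitory sensor of monocytes, which changed by -3.02 with gilteritinib alone and 0.75 on top of MI-3454, and CYP27A1, at -1.66 and 1.82. Among the largest negative ones was ANGPT1, the TIE2 receptor ligand, at 1.02 and -4.39. XIRP1 and INHBE had 88 and 73 counts with MI-3454 and none with the combination, so they were at least 29.5-fold and 24.4-fold lower, taking 3 counts over the group as the floor. The chemokine gene CCL4L2 changed by 2.03 with gilteritinib alone and -3.04 on top of MI-3454, and reads of it cannot be told apart with certainty from those of its near copy CCL4.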

How the data were processed

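RNA was measured by ribosome-depleted RNA-seq, with 3 libraries per group. The authors deposited raw counts of reads per gene, made with cutadapt 2.1, STAR 2.7.1a and HTSeq 0.11.2 on GRCh38, per the submitters' processing notes; DESeq2 is also named there, and no source used here gives the annotation release or strand setting. Each file held 60668 genes and 5 summary entries, which were left out of library sizes. Genes passing edgeR's filterByExpr over the 12 libraries (13972 of 30849 with a count) were tested with edgeR 4.0.16 (quasi-likelihood, TMM scaling, limma 3.58.1, R 4.3.3), the main comparison among its 6 libraries and the interaction over all 12. Alternatives were total-count, RLE and protein-coding scaling, DESeq2 1.42.0, other gene filters, a replicate block and leaving out libraries. Standard errors were derived from the F statistic. Scripts were tested on simulated data. Levels are CPM, TMM-scaled over 12 libraries, and intervals and floors cover counting error only. Symbols came for 60340 genes, and coordinates for 58561 from GENCODE 29 (GRCh38).

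Named are fixed anchor genes, the 10 largest called rises and falls of protein-coding genes (at least 5 CPM, no overlap), the 6 largest by mean CPM, the 4 largest long noncoding changes, up to 4 called members per list and the 6 largest interactions per direction. The members and lists were chosen with earlier results of these data known. SLC7A11, ATF4, the SREBP genes, the sterol enzymes listed by step, C5AR1 and minority members of lists were named after their values were seen, and the synthetase and fatty acid lists were added to the motif search then too. Some genes that this rule names are not reported here.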

Additional observations from a re-analysis of the deposited data

Results flagged for a closer look

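The effect of gilteritinib differed between cells with and without MI-3454, by the interaction test, for 2136 genes, among them the following with their interaction on the log2 scale (positive where the log2 change was higher under MI-3454). Of the signalling and survival genes, PIM1 (2.17), BCL2L11 (1.62) and CISH (0.87) were positive, and SOCS2 (-1.29), DUSP6 (-1.05), MYC (-0.79), BCL2 (-0.50) and MCL1 (-0.42) were negative. The MLL-fusion targets MEIS1 (-1.54) and MEF2C (-1.52), the granule gene MPO (-1.92) and the desaturase gene SCD (-2.75) were negative. Of the 10 genes with the largest rises on top of MI-3454, 9 were called positive: IL31RA (3.65), OLR1 (4.92), CNR2 (1.55), HLA-F (1.94), SEMA6B (2.35), HPD (2.50), SGSH (3.13), CYP27A1 (3.47) and KIAA0513 (2.63). The other one, SERPINB2 (-0.81), was not called. Of the 10 with the largest falls, 8 were called negative: ADM2 (-5.08), DUSP8 (-5.77), CHAC1 (-1.91), ENPP2 (-1.52), SLC6A8 (-3.59), LINC03040 (-3.71), INHBA (-2.80) and ALDOC (-3.05). STC2 (-0.72) and IGFBP2 (-0.48) were not called. Both sets were picked for their large differences between combination and MI-3454. The interaction contains that same difference, so these counts were partly set by the choice and lend no support. Of all tested genes 6.55% were called positive and 8.74% negative. Other large interactions were those of IL2RA (6.51), HLA-DRA (5.48), NLRP12 (3.76), XIRP1 (-7.30), INHBE (-6.04), ANGPT1 (-5.42) and CCL4L2 (-5.09). Fitted values of genes near 0 counts, such as XIRP1, INHBE, ADM2, DUSP8, IL2RA and HLA-DRA, depend on the prior count. IL2RA had a mean of 55.1 CPM with DMSO and 1.075 CPM with MI-3454, and the part of these starting levels in its interaction was not tested. Without combination replicate 3 the IL2RA interaction was 3.79 and not called (edgeR adjusted p = 0.94). The BCL2 interaction was not called without MI-3454 replicate 1, combination replicate 2 or gilteritinib replicate 1, nor with scaling by total counts. That of MCL1 was not called without MI-3454 replicate 1, combination replicate 2 or 3, DMSO replicate 3 or gilteritinib replicate 1 or 3, nor with that scaling, and that of HLA-F not without DMSO replicate 2.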

How the results depend on the processing

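With 1 library left out, the combination differed from MI-3454 in 2456 to 5074 genes, 1158 to 2404 of them higher and 1287 to 2670 lower. Gilteritinib against DMSO gave 1243 to 3985 genes, 535 to 1928 higher and 677 to 2057 lower, and the interaction 1305 to 2698, 590 to 1167 positive and 715 to 1636 negative. With scaling by total counts 809 interactions were negative. The share of mitochondrial counts differed by -0.0403 percentage points (combination minus MI-3454), and by -0.115 to 0.0739 with 1 library left out, the highest without MI-3454 replicate 3. Same-numbered libraries of the combination and MI-3454 did not deviate together (r of -0.0764, 0.0434 and -0.25). Those of gilteritinib and DMSO had r of 0.124, 0.342 and 0.0927, against -0.267 to 0.183 for differently numbered ones. The main fits did not take numbers as pairs, and for gilteritinib against DMSO these values do not settle that choice. A fit with the replicate block gave 3039 genes for the combination against MI-3454 and 1757 for the interaction. For gilteritinib against DMSO it gave 4928 (2474 higher, 2454 lower), among them all 2110 of the main fit. DESeq2 called 3600 genes for the combination against MI-3454, and 4083 were called with RLE scaling. Among the genes named by the rule above, none changed direction in these fits. Other genes given in the text were not part of that check. Of 184 named results, from 155 (without combination replicate 2) to 177 (without MI-3454 replicate 3) kept their side of the threshold when a library was left out. With 6.47 M counts in the shallowest library, genes under about 1 CPM rest on few reads.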
